A study of Mus musculus with 4 samples.

Results

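The genes described here are 10 components of the basement membrane that surrounds the lens: the laminin chains Lama1, Lama5, Lamb1, Lamb2 and Lamc1, the nidogens Nid1 and Nid2, the heparan sulfate proteoglycans Hspg2 (perlecan) and Agrn (agrin), and the collagen-binding matrix protein Sparc. They were taken by gene symbol from the 14924 genes with a normalized expression value, and all 10 were found. RNA came from whole lenses of 1-month-old mice of an S100A4 null line (S100A4-/-) kept on a C57BL/6J background and of their wild type (WT) littermates. Each genotype had 2 libraries and each library held 6 to 12 pooled lenses, so a library is a mean over several eyes, and the sex of the animals in each pool is not given in the sources used here. The line lacks S100A4, a calcium-binding protein of lens fibre cells, in every tissue of the animal and not only in the lens.

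The lens capsule is a thick basement membrane that encloses the lens throughout life. Laminins, each built of an alpha, a beta and a gamma chain, polymerize on the cell surface and are linked through nidogens to a network of collagen IV, while perlecan and agrin bind to both and carry heparan sulfate. The lens epithelium makes the anterior capsule and the fibre cells the posterior capsule, and both cell layers hold on to it through integrins and dystroglycan.

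Nid2, the less read of the nidogens, was 3.28-fold higher in S100A4-/- lenses, and it was the only one of the 10 genes that passed a threshold of 2-fold. Agrn was 1.53-fold and Lamb2 1.27-fold higher, below that threshold but with an adjusted p under 0.05, and the call of Lamb2 was lost when any of 3 of the 4 libraries was left out. The other 7 genes, which include Sparc, Nid1 and Hspg2, the members with the highest levels per kb, did not pass the test in either direction. In whole-lens RNA, fewer cells of a type and less RNA per cell cannot be told apart. Summed over the 10 genes, the normalized values came to 207248 and 204210 in S100A4-/-, against 200709 and 210350 in WT, so the WT libraries lay on either side of the S100A4-/- ones.

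The start regions of 4 of these genes are shown because each pair sets a gene that passed the test beside a related one that did not: Lamb2 beside Lamb1, and Agrn beside Hspg2. Each stretch runs from 250 bases before to 50 bases after a RefSeq transcription start on GRCm38.p6 and is written 5′ to 3′ on the strand of the gene. Capitals mark GGGCGG or its reverse complement CCGCCC, the core of the GC box. Lamb1 lies at chr12:31265043-31265342 on the plus strand, Lamb2 at chr9:108479612-108479911 on the plus strand, Hspg2 at chr4:137468553-137468852 on the plus strand, and the upstream start of Agrn at chr4:156197439-156197738 on the minus strand.
Lamb1: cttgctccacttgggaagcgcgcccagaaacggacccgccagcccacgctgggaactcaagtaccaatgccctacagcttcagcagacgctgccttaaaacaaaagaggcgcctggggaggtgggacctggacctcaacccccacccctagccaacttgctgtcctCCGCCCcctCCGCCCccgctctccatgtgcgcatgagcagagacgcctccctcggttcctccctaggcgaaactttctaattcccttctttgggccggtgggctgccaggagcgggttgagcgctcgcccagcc
Lamb2: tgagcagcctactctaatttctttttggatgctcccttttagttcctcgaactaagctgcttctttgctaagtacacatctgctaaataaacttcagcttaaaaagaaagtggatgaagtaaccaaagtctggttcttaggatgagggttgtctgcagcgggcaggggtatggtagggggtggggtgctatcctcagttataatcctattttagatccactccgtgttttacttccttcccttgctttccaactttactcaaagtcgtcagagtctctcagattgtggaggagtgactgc
Hspg2: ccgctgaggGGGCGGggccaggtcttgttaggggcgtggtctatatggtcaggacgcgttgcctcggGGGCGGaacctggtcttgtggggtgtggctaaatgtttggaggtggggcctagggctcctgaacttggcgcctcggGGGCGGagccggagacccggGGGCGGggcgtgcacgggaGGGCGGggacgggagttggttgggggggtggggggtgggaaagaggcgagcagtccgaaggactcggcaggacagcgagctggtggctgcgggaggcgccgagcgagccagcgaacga
Agrn: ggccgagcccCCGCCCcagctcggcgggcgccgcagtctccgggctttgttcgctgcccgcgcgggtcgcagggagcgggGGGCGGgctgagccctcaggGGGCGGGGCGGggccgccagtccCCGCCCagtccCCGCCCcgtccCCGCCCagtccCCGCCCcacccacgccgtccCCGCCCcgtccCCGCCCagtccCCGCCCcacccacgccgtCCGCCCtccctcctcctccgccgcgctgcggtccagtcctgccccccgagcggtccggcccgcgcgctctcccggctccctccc

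Agrn held 42 CG dinucleotides and 12 GC box cores in this window, with overlapping cores counted singly, and Hspg2 held 27 and 5. The other RefSeq start of Agrn, at chr4:156186210-156186509 on the minus strand, held 11 and 2, fewer than Hspg2. Lamb1 held 18 CG dinucleotides and 2 cores, and Lamb2 held 4 and 0. The median of 32851 start regions of the same length was 7 CG dinucleotides, and 35.7% of them held a GC box core on either strand. RefSeq start regions were matched for 7 of the 10 genes, and Lama1, Lamc1 and Nid2 had no entry in the set of start regions used here. These letters describe the windows and say nothing of the factors that act there.

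The genotype was first checked on the deleted gene. The normalized values of S100a4 were 14.6 and 18.2 in S100A4-/-, against 14420 and 14385 in WT, so the deleted gene went with the labels. A normalized value is a read count scaled by the size factor of its library, and 1 read was worth 0.856 and 1.01 in S100A4-/-, against 1.04 and 1.09 in WT. The libraries held 81602367 and 74108017 reads on genes in S100A4-/- lenses and 70253985 and 68038158 in WT lenses.

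Levels can be compared between genes only after division by length, and they spanned a wide range per kb of exon. In WT lenses, Sparc was at 20930 ± 193 per kb (mean ± SD, n = 2 libraries, as in every mean below), Nid1 at 10414 ± 326 and Hspg2 at 2604 ± 322. The 3 chains Lamc1, Lamb1 and Lama5 followed at 509 ± 13.5, 457 ± 21.7 and 348 ± 13.3 per kb. Lama1 was at 250.1 ± 9.02, Lamb2 at 137 ± 14.9, Agrn at 71.2 ± 3.69 and Nid2 at 16.5 ± 2.37 per kb. The order was the same in S100A4-/- lenses, and the libraries of neighbouring genes in it did not overlap within either genotype. Lamc1 and Lamb1 changed places when the longest transcript replaced the summed exons, because the annotated exons of Lamb1 add up to 9917 bp and its longest transcript to 5784 bp.

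**Figure D1:**
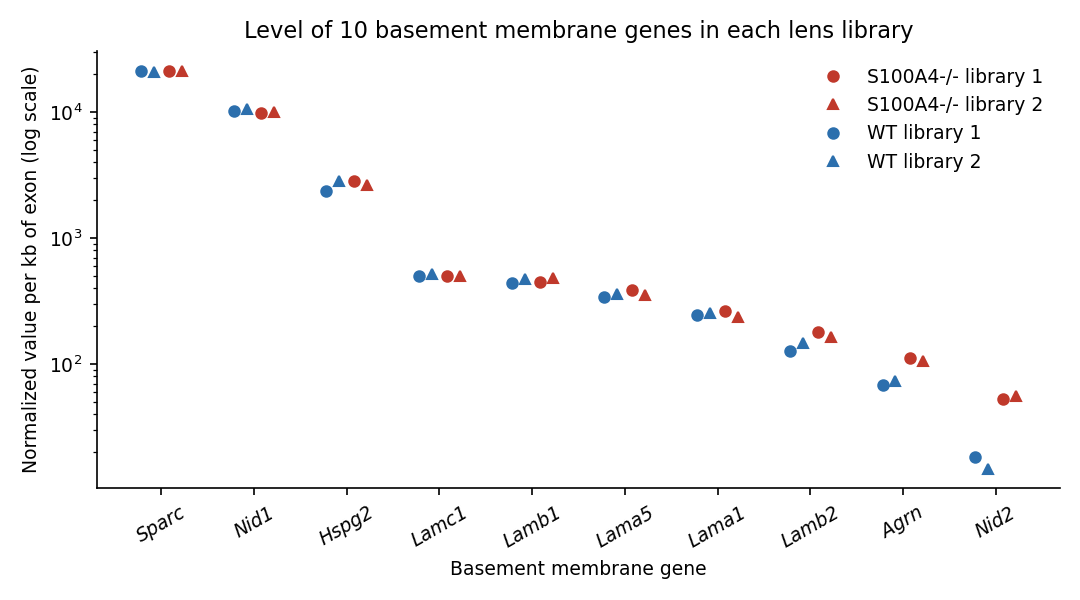
Normalized value per kb of summed exon length (log axis) of the 10 basement membrane genes in each library, with 2 S100A4-/- libraries in red and 2 WT libraries in blue. Nid2, at the right end, has both S100A4-/- points (53.1 and 55.4) well above both WT points (18.2 and 14.8), while the points of Sparc, at the left end, lie almost on one another.

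The genotypes were compared by limma, on log2(value + 1) and over 14780 genes, and S100A4-/- lenses were higher at 2-fold for 539 of them, 3.65%, and lower for 11, 0.0744%. With no minimum of the fold, 5.62% of all genes were higher, 1.33% lower and 6.96% changed in either direction at an adjusted p of at most 0.05. Against this background, 1 of the 10 basement membrane genes was higher at 2-fold, 3 were higher at any fold and 0 were lower in either way. The counts of 3 and 0 were the same with DESeq2 and edgeR and at an unadjusted p under 0.05 in limma. Both S100A4-/- values lay above both WT values for 4 members (Lamb2, Nid2, Agrn and Sparc), against 23.7% of all genes, and below them for 1, Nid1, against 23.2%. The median log2 fold change was 0.05 for the members and -0.01 for all genes tested. With 2 pools a genotype, the p-values rest on the spread between pools and not between single animals. In limma with the trend, the spread of each gene is also drawn towards that of genes of similar level.

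Gene positions below are on GRCm38, and where values are set against each other with no label, those of S100A4-/- libraries 1 and 2 come first and those of WT libraries 1 and 2 after "against". Of the alpha chains, Lama1 (chr17:67697259-67822647) is the chain of embryonic laminin that persists in the lens capsule, and Lama5 (chr2:180176373-180225859) the widespread chain of mature basement membranes. Lama1 had values of 2575 and 2298 in S100A4-/-, against 2360 and 2483 in WT. Lama5 had 4408 and 4001 against 3851 and 4065. The genotypes overlapped for both chains. The log2 fold change was 0.01 ± 0.06 (SE) for Lama1 (limma, adjusted p = 0.973) and 0.09 ± 0.05 for Lama5 (adjusted p = 0.435). The 95% intervals of the fold ran from 0.923 to 1.09 and from 0.984 to 1.15.

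Of the beta chains, Lamb2 rose and Lamb1 did not pass the test. Lamb1 (chr12:31265234-31329644), the beta chain of the common laminins, had values of 4432 and 4751 in S100A4-/-, against 4376 and 4681 in WT. Its genotypes overlapped, with a log2 fold change of 0.02 ± 0.05 (limma, adjusted p = 0.896). Lamb2 (chr9:108479736-108490530), the beta chain of laminins at the neuromuscular synapse, the kidney glomerulus and the retina, had 1102 and 1001 against 767 and 896. Both S100A4-/- values were above both WT values, and its log2 fold change was 0.34 ± 0.08, a fold of 1.27 with a 95% interval from 1.13 to 1.42 (limma, adjusted p = 0.00422). The call was lost when a single library was left out, at an adjusted p of 0.305 without S100A4-/- library 1, 0.101 without S100A4-/- library 2 and 0.189 without WT library 1 (it held without WT library 2), and it was also lost in limma without a trend of the variance, at 0.377.

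Lamc1 (chr1:153218922-153332786) is the gamma chain of nearly all laminins. Its values were 4164 and 4104 in S100A4-/-, against 4129 and 4287 in WT, with a log2 fold change of -0.03 ± 0.05 (limma, adjusted p = 0.860). The genotypes overlapped, and the interval of its fold ran from 0.915 to 1.06.

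Of the nidogens, Nid2 rose and Nid1 did not pass the test. Nid1 (chr13:13437551-13512269), the main link between laminin and collagen IV, had values of 68282 and 69090 in S100A4-/-, against 70703 and 73906 in WT. Both S100A4-/- values were below both WT values, but the log2 fold change of -0.07 ± 0.04 did not pass the test (limma, adjusted p = 0.350), and the fold lay between 0.898 and 1.01. Nid2 (chr14:19751265-19811787), its relative with overlapping binding partners, had 275 and 287 against 94.0 and 76.6.

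The values of Nid2 in the S100A4-/- libraries rested on 321 and 283 reads and those in the WT libraries on 90 and 70. Its mean was 281 ± 8.43 in S100A4-/- and 85.3 ± 12.3 in WT lenses, and the log2 fold change was 1.71 ± 0.17, with the fold between 2.60 and 4.14 (limma, adjusted p = 3.47e-10). It was 1.72 with DESeq2 (adjusted p = 5.33e-12) and 1.71 with edgeR (2.88e-11) on the read counts. Exons of Nid2 overlap those of Rtraf, a gene on the opposite strand, and the strand setting of the counting is not given in the sources used here. Rtraf had values of 2448 and 2506 in S100A4-/-, against 2534 and 2408 in WT, which overlapped (log2 fold change 0.00 ± 0.06, adjusted p = 0.983). Exons of Nid1 overlap an antisense gene, Gm48682, in the same way.

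Among the proteoglycans, Hspg2 (chr4:137468769-137570630), which encodes perlecan, had values of 40282 and 37863 in S100A4-/-, against 33995 and 40507 in WT. WT library 1 lay below both S100A4-/- values and WT library 2 above both, so the genotypes overlapped. Its log2 fold change was 0.07 ± 0.05 (limma, adjusted p = 0.487). WT library 2 decided this result, since without it the log2 fold change was 0.20 and passed the test (adjusted p = 0.0347), while without WT library 1 it was -0.05.

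Agrn (chr4:156165290-156197488) encodes agrin, which clusters acetylcholine receptors at the neuromuscular junction and binds laminin in many basement membranes. It had values of 1046 and 978 in S100A4-/-, against 637 and 685 in WT, with no overlap. The log2 fold change was 0.61 ± 0.08, a fold of 1.53 with an interval from 1.37 to 1.71 (limma, adjusted p = 4.02e-07). The interval lies below 2-fold. The call held when any single library was left out, with log2 fold changes from 0.56 to 0.67, and was lost only in limma without the trend (adjusted p = 0.107).

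Sparc (chr11:55394500-55423183) binds collagen IV and is needed for an intact lens capsule in mice. Its values were 80682 and 79838 in S100A4-/-, against 79798 and 78764 in WT, all within a narrow band. The S100A4-/- values were both above the WT values, yet the log2 fold change was 0.02 ± 0.04 (limma, adjusted p = 0.877) and the fold lay between 0.957 and 1.07. Of the 10 genes it had the narrowest interval on this scale.

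**Figure D2:**
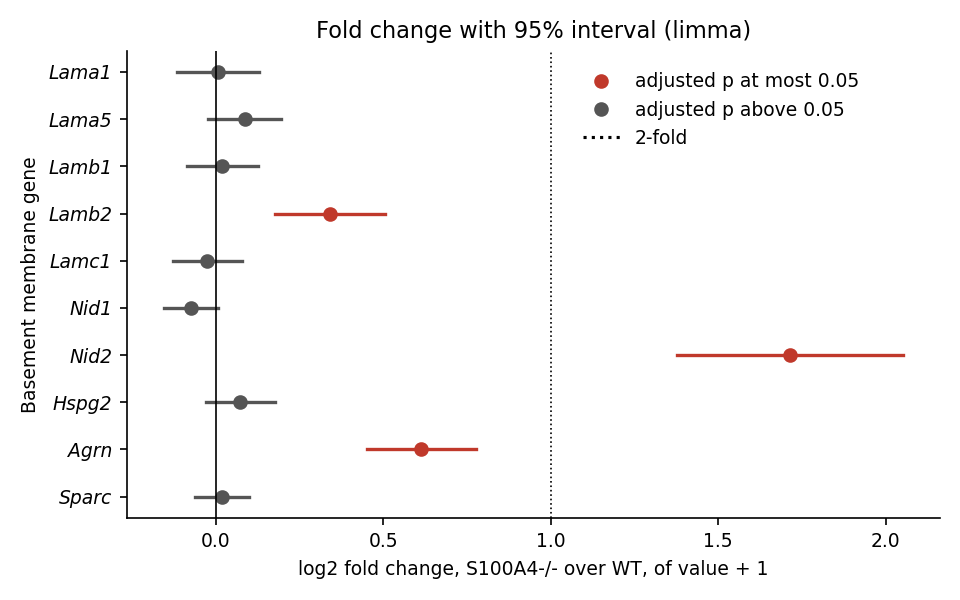
log2 fold change of S100A4-/- over WT lenses with its 95% interval from limma for the 10 genes, in the order laminins, nidogens, proteoglycans and Sparc. Nid2 is the only gene whose interval lies beyond the dotted 2-fold line, Agrn and Lamb2 lie between no change and 2-fold, and the other 7 intervals include no change.

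Ratios of related genes within a library do not depend on how the library was scaled. They are ratios of normalized values not divided by length, so they compare libraries and not the levels of the 2 genes. Nid2 was 0.403% and 0.415% of Nid1 in S100A4-/-, against 0.133% and 0.104% in WT, a mean ratio 3.46 times as high. Agrn was 2.60% and 2.58% of Hspg2 against 1.87% and 1.69%, and Lamb2 was 24.9% and 21.1% of Lamb1 against 17.5% and 19.1%. In these 3 pairs the S100A4-/- libraries were both above the WT libraries. Lama1 went the other way, at 58.4% and 57.4% of Lama5 against 61.3% and 61.1%, and Lamc1 was 5.16% and 5.14% of Sparc against 5.17% and 5.44%. With 2 libraries a genotype, the two-sided exact permutation test cannot give a p below 0.333, which each of these 5 ratios reached.

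**Figure D3:**
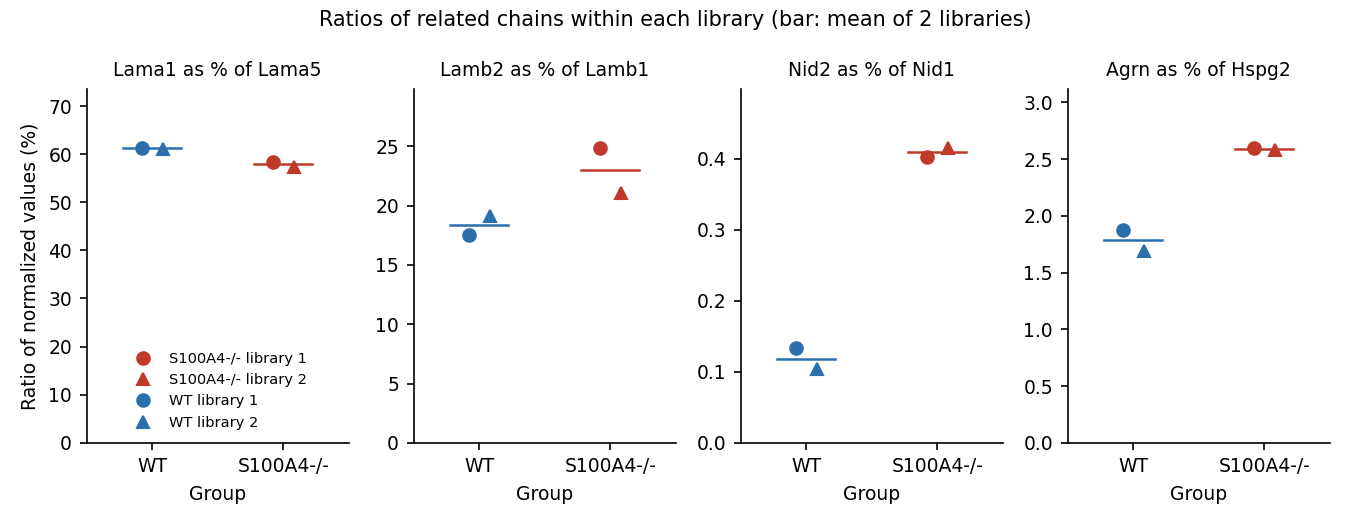
Ratio of the normalized values of related genes within each library, in percent and not divided by gene length, with WT in blue, S100A4-/- in red and a bar at the mean of 2 libraries; each axis starts at 0. Of the pairs drawn, Nid2 relative to Nid1 shows the widest relative gap, with 0.403% and 0.415% in S100A4-/- against 0.133% and 0.104% in WT. Lama1 relative to Lama5 shows the smallest, and Lamc1 relative to Sparc is not drawn.

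The other genes of the basement membrane were described from 8 lists, of which 121 genes were tested: 9 were higher at 2-fold (7.44%), 13 were higher at any fold and 0 were lower, beside 3.65%, 5.62% and 1.33% of all genes. At an unadjusted p under 0.05, limma had 23 of them higher and 9 lower, and DESeq2 and edgeR had 0 lower after adjustment. The 9 higher genes became 5 without S100A4-/- library 1 and 6 without S100A4-/- library 2. The median log2 fold change over these lists was 0.02. Of the remaining laminin chains, 0 of 6 passed the test in limma, DESeq2 or edgeR, and 1 was lower at an unadjusted p under 0.05 in limma. Lama2, the alpha chain of muscle and nerve laminins and the most read of them, had values of 3689 and 3480 in S100A4-/-, against 3561 and 3809 in WT. Lama3, an alpha chain of epithelial laminins, had 659 and 665 against 645 and 671. The genotypes overlapped for both.

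Of the 8 collagens of basement membranes, 1 passed, Col18a1, the source of endostatin and a heparan sulfate-bearing collagen. It rose from 834 and 934 in WT to 4462 and 4337 in S100A4-/- lenses, a log2 fold change of 2.32 ± 0.06 (limma, adjusted p = 1.05e-26). The 6 chains of collagen IV, the main scaffold of the capsule, did not pass: Col4a1, the most read, had values of 213579 and 214085 in S100A4-/-, against 224625 and 224233 in WT, a log2 fold change of -0.07 ± 0.04 (adjusted p = 0.404). Col4a2, which is transcribed from a promoter shared with Col4a1, had a log2 fold change of -0.06 ± 0.04 (adjusted p = 0.489).

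Among other proteins of basement membranes, 4 of 21 were higher at 2-fold and 5 at any fold. Fbln1 (fibulin 1) rose from 890 and 1144 to 3906 and 3709, and Efemp1 (fibulin 3) from 159 and 174 to 695 and 726. Fbln2 (fibulin 2) was at 95.9 and 78.0 against 11.5 and 28.5. Frem1, of the Fraser complex, was at 295 and 209 against 95.02 and 129. The S100A4-/- libraries of all 4 were above the WT libraries. Their log2 fold changes were 1.91 ± 0.07 for Fbln1, 2.09 ± 0.11 for Efemp1, 2.19 ± 0.35 for Fbln2 and 1.16 ± 0.18 for Frem1. Without S100A4-/- library 1 the calls of Fbln2 and Frem1 were lost (adjusted p = 0.145 and 0.139), and without S100A4-/- library 2 that of Fbln2 (0.0791). Without WT library 1 Frem1 fell below 2-fold, at a log2 fold change of 0.94. Fras1, also of the Fraser complex, was higher below 2-fold, at 908 and 778 against 478 and 565 (0.69 ± 0.09, adjusted p = 7.06e-07). Its call was lost in limma without the trend. Npnt (nephronectin), an integrin ligand and the most read gene of the list, was at 5863 and 5750 against 5990 and 5835.

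Of 21 receptors for laminin and proteoglycans, Bcam and Gpc3 were higher at 2-fold and 3 genes at any fold. Bcam, a receptor for laminins with the alpha 5 chain, rose from 141 and 175 to 401 and 423 (log2 fold change 1.38 ± 0.13, adjusted p = 3.24e-10), a call lost in limma without the trend (0.0648). Gpc3, a cell-surface glypican, was at 48.8 and 57.8 against 24.0 and 24.1 (1.11 ± 0.34, adjusted p = 0.0343), and its call was lost when any single library was left out, with adjusted p from 0.0570 to 0.324, and in DESeq2 (0.207). Gpc6, another glypican, was at 438 and 519 against 326 and 297 (0.62 ± 0.11, adjusted p = 0.000125). The call of Gpc6 was lost in limma without the trend. The integrin subunits of the lens, Itga6 and Itgb1, were the most read: Itga6 had a log2 fold change of -0.13 ± 0.04 (adjusted p = 0.0742) and Itgb1 of -0.11 ± 0.05 (0.157), and neither passed.

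Of the 20 genes for matrix assembly, 0 were higher at 2-fold in limma, DESeq2 or edgeR, 2 were higher and 2 lower at an unadjusted p under 0.05 in limma, and P3h3, a prolyl hydroxylase, was higher at any fold (0.63 ± 0.18, adjusted p = 0.0228 in limma and 0.188 in DESeq2). P4ha1, a collagen prolyl hydroxylase, and Pxdn, which crosslinks collagen IV, were the most read and did not pass. Of the 20 genes for glycosylation of dystroglycan and heparan sulfate, 0 passed in either direction in limma, DESeq2 or edgeR, and at an unadjusted p under 0.05 limma had 1 higher and 1 lower. The most read of these were Ndst1 and Hs6st1, both enzymes that sulfate heparan sulfate, each with a log2 fold change of 0.03 ± 0.06. Among 20 proteases and inhibitors, Adamts9, a secreted metalloprotease, was at 88.2 and 91.2 against 8.35 and 6.57, a log2 fold change of 3.43 ± 0.39 (adjusted p = 1.69e-08). Timp3, a matrix-bound inhibitor, was higher by 0.21 ± 0.05 (adjusted p = 0.00106), a call lost in limma without the trend. Ctsl, a lysosomal cathepsin, and Timp2, a metalloprotease inhibitor, were the most read, with log2 fold changes of -0.01 ± 0.04 each. In the Sparc family, Sparcl1 was at 146 and 169 against 66.8 and 86.5 (1.04 ± 0.20, adjusted p = 0.000296), a call lost without S100A4-/- library 1 (0.0908) or 2 (0.156) and, at 2-fold, without WT library 1, while Fstl1, the most read of the family, had a log2 fold change of -0.01 ± 0.04 and Spock2, the next most read, of -0.10 ± 0.06 (adjusted p = 0.414).

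**Figure D4:**
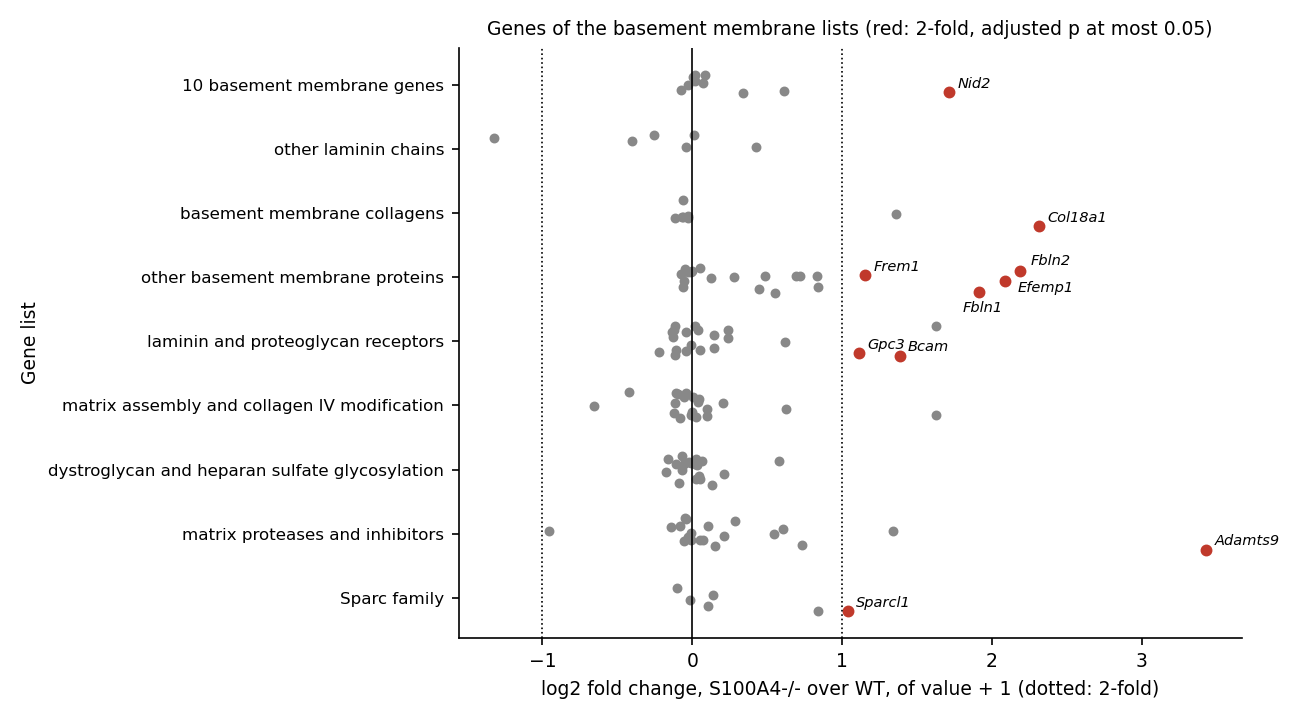
log2 fold change of S100A4-/- over WT lenses for each gene of the 10 basement membrane genes and of the 8 further lists, with jitter on the vertical axis only and dotted lines at 2-fold. Red points passed at 2-fold with an adjusted p of at most 0.05 and are named; none lies on the lower side, and Adamts9 lies farthest out at 3.43.

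The counts were also split by level. Of the members and the pathway genes with a mean value below 100, 3 of 29 were higher at 2-fold (10.3%), beside 8.16% of all genes in that range. From 100 to 1000 there were 5 of 42 (11.9%), beside 2.21% of all genes, and from 1000 upward 2 of 60 (3.33%), beside 0.444%. The 2 genes of the upper range were Col18a1 and Fbln1, and Nid2 was among the 5 of the middle range.

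**Figure D5:**
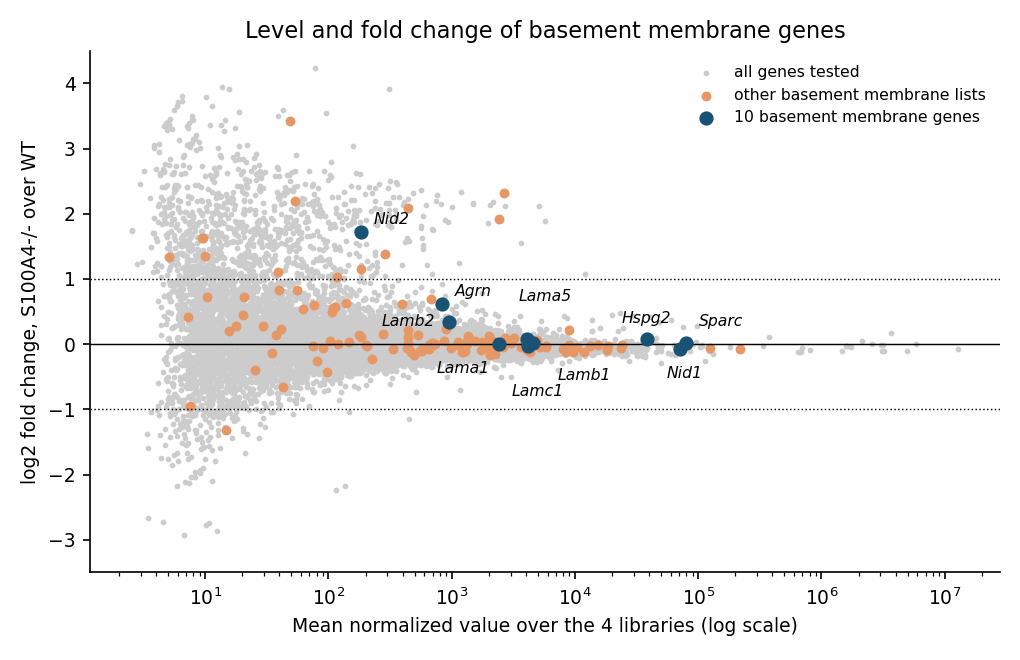
Mean normalized value over the 4 libraries (log axis) against the log2 fold change of S100A4-/- over WT lenses for all 14780 genes tested in grey, with the 10 basement membrane genes in blue and the other lists in orange; 2 genes outside the vertical range are not drawn. Nid2 lies above the dotted 2-fold line, Agrn and Lamb2 between that line and 0, and the other members close to 0.

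Genes known as markers of other cells of the eye moved with the genotype as well, and they are given here beside the basement membrane genes. The paper reports retinal genes as induced in the lens itself, with PDEγ and transducin stained in lens sections. Whether the marker reads here came from lens cells or from other cells was not tested. All 13 photoreceptor markers tested were higher at 2-fold in S100A4-/- lenses. They summed to 13493 and 13091 against 3208 and 3312, with Gnat1, the rod transducin, as the most read (3339 and 3327 against 736 and 782), and their median log2 fold change was 2.05. The 6 with the lowest adjusted p were Gnat1, Rbp3, Prph2, Sag, Pde6a and Rp1. Of 8 markers of pigmented and ciliary epithelium, 6 were higher (Dct, Pmel, Wfdc1, Tyrp1, Tyr and Mlana), and the list summed to 1531 and 1552 against 273 and 373, with Dct, a melanin enzyme, the most read; Opcml had 0 reads in 1 WT library. Of 8 Müller glia markers, 4 were higher (Apoe, Glul, Slc1a3 and Rlbp1), and the list summed to 94348 and 95876 against 82769 and 83713, or to 15915 and 15560 against 4914 and 5684 without its most read gene, Dkk3, which did not pass.

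Cells of vessels and stroma also make basement membrane, and their markers are counted at 2-fold as well. Of 10 endothelial markers, Kdr and Flt1 were higher. The other 8 did not pass, with Pecam1 at 23.1 and 24.3 against 18.8 and 24.1 and Cdh5 at 14.6 and 35.5 against 9.40 and 20.8. Both S100A4-/- values lay below both WT values for Vwf (72.8 and 70.9 against 90.8 and 96.4) and Tek (46.2 and 44.6 against 49.1 and 59.1), and above them for Tie1, Cldn5 and Esam. The list, with Egfl7 the most read, summed to 857 and 848 against 536 and 641. Of 7 pericyte and smooth muscle markers 3 were higher at 2-fold (Notch3, Myh11 and Cspg4) and Rgs5 below it (log2 fold change 0.82 ± 0.17, adjusted p = 0.000891), with sums of 19384 and 21192 against 19218 and 19703, most of it Acta2. Of 6 stromal markers 1 was higher at 2-fold, Thy1, and Col1a2, the most read, below it (0.34 ± 0.07, adjusted p = 0.00161), with sums of 1242 and 1277 against 946 and 987. Of 8 macrophage markers 4 were higher, C1qa, C1qb, C1qc and Csf1r (list sums 349 and 314 against 128 and 111, Csf1r the most read). For all 8, both S100A4-/- values lay above both WT values, beside 23.7% of all genes. Red cell markers had 1 of 5 higher, Hbb-bs (list sums 294 and 259 against 169 and 98.5, the same gene the most read) and corneal epithelium markers 0 of 3 in limma (0 also at an unadjusted p under 0.05), DESeq2 or edgeR, with Aldh3a1 the most read. Several of these counts hung on single libraries: without S100A4-/- library 1 or 2 the macrophage, stromal and red cell counts were 0, the red cell count was also 0 without WT library 2, and the pericyte count was 1 without S100A4-/- library 1 or WT library 2 and 0 without S100A4-/- library 2. Without S100A4-/- library 1 the count was 3 for pigmented and ciliary epithelium and 1 for endothelium, while it stayed at 13 for photoreceptors without any 1 library.

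Markers of the lens itself were read in all libraries. Of 12 lens fibre markers 0 and of 8 lens epithelium markers 0 were higher at 2-fold, in limma, DESeq2 and edgeR, and in limma 2 fibre markers, Grifin and Hspb1, were lower at any fold. DESeq2 called Grifin and Mip lower and not Hspb1 (adjusted p = 0.753), and edgeR called Grifin, Hspb1, Mip and Lgsn. In limma Mip, the lens water channel, had an adjusted p of 0.124 and Lgsn of 0.153. Crybb2, a crystallin and the most read fibre marker, had a log2 fold change of 0.00 ± 0.06, and Sfrp1, the most read epithelial marker, fell by 0.13 on the log2 scale (adjusted p = 0.0386 in limma, 0.0297 in DESeq2 and 0.0636 in edgeR). Slc38a3, an amino acid transporter of the same list, was higher by 0.23 (adjusted p = 0.0261 in limma, 0.128 in DESeq2 and 0.0197 in edgeR). Npnt stands in the epithelial list as well as in that of basement membrane proteins. Whether other cells had a part in the rise of Nid2, Agrn, Lamb2 and the pathway genes was not tested.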

How the data were processed

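Stranded mRNA-seq libraries of 2 S100A4-/- and 2 WT pools were made by the study. The authors trimmed reads with Trim Galore, kept those of at least 20 nt, aligned them by STAR to GRCm38, counted single-locus reads per gene with HTSeq and normalized them with DESeq2; tool versions are not given in the sources used here. The signal values the authors deposited are counts divided by a size factor, not by length. In each library 100% of values came out as whole reads (within 0.01 reads), and these recovered reads entered DESeq2 1.42.0 and edgeR 4.0.16 as alternatives, which called the same 3 members at an adjusted p of at most 0.05. The main test was limma 3.58.1 (R 4.3.3; lmFit, eBayes with trend) on log2(value + 1) for genes that reached a value of 10 in 1 or more libraries (144 left out), adjusted by Benjamini-Hochberg over all genes, on 2 groups without a replicate block. The pseudocount of 1 draws the fold change of low genes towards no change, and a fold from mean log2 values can still exceed the ratio of the means, as for Fbln2 (4.56 against 4.35). The tests were tested on simulated data. Coordinates and exon lengths came from GENCODE M21 (14782 genes matched), start regions from RefSeq. No per-sample column was unused (0).

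The 10 genes and all lists were chosen with earlier results of these data known. Named were the 10 genes, up to 6 genes per list that passed at 2-fold, the 2 most read of each basement membrane list and the most read of each marker list; Timp3, P3h3, Fras1, Gpc6, Rgs5, Pecam1, Cdh5, Vwf, Tek, Tie1, Cldn5, Esam, Opcml, Grifin, Hspb1, Mip, Lgsn and Slc38a3 were named after their values were seen. Alternatives were other pseudocounts, filters, scalings and tests, the replicate number as a block, and each library left out. Some genes are not reported here and were taken out of the lists after the results were first computed.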

Additional observations from a re-analysis of the deposited data

How the results depend on the processing

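Nid2 kept its direction and its 2-fold call under all 17 alternatives, with a log2 fold change from 1.57 to 1.86, and Col18a1, Fbln1 and Efemp1 also stayed above 0 with an adjusted p of at most 0.0495. The count of members higher at any fold was 3; it was 1 without the variance trend and 2 to 4 when a library was left out, and quantile normalization gave 1 lower member, Nid1 (-0.10, adjusted p = 0.0130). Signs turned for members that did not pass the main test. Leaving out a library, log2 fold changes ran from -0.0753 (without S100A4-/- library 1) to 0.0891 for Lama1 (-0.0298 without WT library 1), from -0.0303 (without S100A4-/- library 2) to 0.0701 for Lamb1 (-0.0286 without WT library 1), from -0.0523 to 0.0019 (without WT library 2) for Lamc1 and from -0.0527 (without WT library 1) to 0.2002 (without WT library 2) for Hspg2. Lamc1 was at 0.0039 with equal totals, 0.0056 with equal totals without the 10 most read genes and 0.0103 with quantile normalization, which put Sparc at -0.0752. Leaving out a library leaves 1 in that group, which is assumed to vary like the other group.

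Over all genes, 539 were higher at 2-fold, against 281 with a mean value of at least 50, 174 without the trend, 168 with limma treat and 168 to 546 leaving out a library. The 11 lower ones were 6 with the mean filter, 23 with quantile normalization, 7 without the trend, 6 with DESeq2, 3 with treat and 4 to 13 leaving out a library. At any fold, the 831 higher genes were 549, 179 and 218 to 803 under the mean filter, no trend and leaving out a library, and the 197 lower ones 55 with equal totals, 101 without the 10 most read genes, 8 without the trend, 91 with DESeq2 and 31 to 111. The pathway genes higher at 2-fold (9) were 4 without the trend, 4 with treat and 5 to 10 leaving out a library, and those higher at any fold (13) were 4 and, leaving out a library, 6 to 15. The cause of these shifts was not tested.

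By list at 2-fold, other basement membrane proteins (4) gave 2 without the trend, 2 with treat and 2 to 6 leaving out a library. Receptors (2) gave 1 with the mean filter, quantile normalization and DESeq2, 0 without the trend and with treat, and 1 to 1 leaving out a library. Proteases (1) gave 0 with the mean filter, which drops Adamts9. The Sparc family (1) gave 0 with a pseudocount of 5, quantile normalization, no trend and treat, and 0 to 2 leaving out a library. Müller glia markers (4) gave 2 without the trend and 2 with treat. Pigmented and ciliary markers (6) gave 3 and 3, and 3 to 6 leaving out a library. Endothelial markers (2) gave 1 with the mean filter and 1 to 3 leaving out a library. Pericyte markers (3) gave 1 with the mean filter, 1 with quantile normalization, 0 without the trend, 0 with treat and 0 to 3. Stromal markers (1) gave 0 with the mean filter, no trend and treat, and 0 to 1. Macrophage markers (4) gave 1 with the mean filter, quantile normalization, no trend and DESeq2, 0 with treat and 0 to 4. Red cell markers (1) gave 0 with quantile normalization, no trend and treat, and 0 to 1.

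With the replicate number as a block, 982 genes were higher and 348 lower at any fold and 2 pathway genes were lower. Nid2, Agrn and Lamb2 stayed called. The deviations of libraries of the same number had a correlation of r = 0.06 across 11340 genes. This single value cannot show whether such libraries share a litter or a preparation, which was not tested. Low read numbers limit Fbln2, Gpc3 and Adamts9, and 2 libraries a genotype limit every test.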

Other observations

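The genes whose pattern over the 4 libraries lay nearest to the mean pattern of the 10 basement membrane genes, by the distance between centred log2(value + 1), were Rsrp1, Ctbp2, Mest, Tshz1 and Ltbp3, out of 10123 candidates whose mean value reached 100. Rsrp1, the nearest at a distance of 0.0192, had values of 1718 and 1651 in S100A4-/-, against 1374 and 1411 in WT. Ltbp3, a matrix protein that binds latent TGF-beta, had 3176 and 3121 against 2493 and 2675. The mean pattern itself stood at 0.16 and 0.11 in the S100A4-/- libraries and at -0.17 and -0.11 in the WT libraries on the log2 scale, and it rests mostly on Nid2, whose log2 fold change was 1.71. Likeness over 4 libraries is a description.

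Lamc3, a gamma chain of laminins outside the 10 genes that was named after its values were seen, had the lowest log2 fold change of the laminin list at -1.32 ± 0.55, with values of 6.85 and 9.12 in S100A4-/-, against 23.0 and 19.7 in WT, and did not pass the test (limma, adjusted p = 0.178).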
